A study of Mus musculus with 16 samples.

Results

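The muscle transcriptome of tumor-bearing mice treated with amiloride (AM) was compared with that of normal mice (NOR), to see which differences from normal muscle remain under treatment. The members are the 4 AM libraries and the 4 NOR libraries, taken by their group label, 8 of the 16 libraries of the series. Each library is poly(A) RNA from the gastrocnemius, the large calf muscle, taken on day 30 and frozen. On day 0 the NOR mice were given PBS and no tumor cells, and PBS again each day from day 9. AM mice carried tumors under the skin of the right flank and were injected daily with amiloride at 2 mg/kg from day 9. The CAC mice, whose values stand beside these, carried the same tumors and received PBS (4 libraries). The KD mice carried tumors of cells with Rab27 knocked down (4 libraries). In each group, replicates 1 and 2 are labelled C57BL/6, the host of LLC lung carcinoma cells, and replicates 3 and 4 BALB/c, the host of CT26 colon carcinoma cells. By these labels strain and tumor line change together. The mice were 6 to 8 weeks old when purchased, before day 0. AM differs from NOR by the tumor and by the drug, and as none of the libraries used here is of amiloride without a tumor, these 2 cannot be told apart. AM 1 and AM 3 also carried an expression pattern, described below, that no NOR library had, so AM vs. NOR holds this difference too.

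Cancer cachexia is a wasting of skeletal muscle in which ubiquitin ligases and the proteasome break down contractile proteins, while inflammatory cytokines and glucocorticoids circulate and metabolism shifts toward fatty acids. The gastrocnemius of the mouse consists mainly of fast, glycolytic fibers. Amiloride is a potassium-sparing diuretic that blocks epithelial sodium channels and, at higher doses, sodium-proton exchange, and it also lowers exosome release from cells.

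Libraries held 43804838 to 59168387 gene counts in NOR and 35913190 to 48377072 in AM. Levels are given in CPM, the counts of a gene relative to the TMM-scaled size of the library, in the order of replicates 1 to 4. Several libraries stood apart from their group. AM 1 and AM 3, with 2 libraries outside NOR and AM, formed a set of 4 that was at least 4-fold above the other 12 libraries in 5 genes and at least 4-fold below them in 19, while the labelled strains differed in this way in 0 genes. Ifi202b, an interferon-inducible gene, was at 2.65 and 3.57 CPM in AM 1 and AM 3 and at 2.9 and 5.86 CPM in the other 2, against 0 to 0.0724 CPM in the other 12. The pattern crosses the strain labels, so whether the labels give the strain of each library is in doubt. No NOR library had this pattern, and AM 2 and AM 4 lacked it, so pattern and group are partly mixed in AM vs. NOR. A fit of all 16 libraries with the pattern as a covariate gave 275 genes higher and 182 lower in AM at an unadjusted p under 0.05, against 746 and 608 in the fit of AM and NOR alone. Values without AM 1 and AM 3 stand beside the genes that moved most in that setting. AM 1 was high in liver genes. Its level of Alb, the serum albumin, was 1224 CPM, against 0.108 to 15.5 CPM in the other 7, and 23 genes were at least 10-fold above each of the other 7 libraries, 9 of them on the list of liver markers. Liver genes were therefore set aside from the ranking. NOR 3 and NOR 4 exceeded the other 6 libraries at least 4-fold in 7 genes, Atf3, Dnajb1, Gm10382, Hspa1a, Hspa1b, Npas4, and Otud1, several of which belong to the stress response. Muscle markers were abundant in all 8 libraries, with Ckm, the muscle creatine kinase, at 24259 to 36158 CPM in NOR and 24906 to 28888 CPM in AM. Of 10 such markers 1 was lower at an unadjusted p under 0.05 (Myl1) and 0 higher, beside 4.13% and 5.06% of all genes.

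In the main test no gene passed the limits in AM vs. NOR, which does not by itself place AM close to normal. Of 14738 genes tested, 0 were differentially expressed genes (DEGs, called at FDR 0.05 with 1.5-fold or more, 0%) in AM vs. NOR by the edgeR quasi-likelihood test, and the lowest FDR was 0.124. At an unadjusted p under 0.05, 746 genes were higher in AM (5.06%) and 608 lower (4.13%), together 9.19%, and under scaling by total counts alone this split was 910 to 480. DESeq2 called 50 genes as higher and 20 as lower on the same counts, while limma-voom called 0. The log2 fold change had a median of 0.02 over all genes, and its 10% and 90% quantiles were -0.33 and 0.44. In 317 genes (2.15%) all 4 AM libraries lay above all 4 NOR libraries, and in 376 (2.55%) all lay below, together 4.7%. Against the same NOR libraries, CAC mice had 633 DEGs up (4.32%) and 753 down (5.13%), together 9.45%. KD mice had 0 DEGs against NOR. Yet the summed collagen chains were at 1664 and 1618 CPM in KD 2 and KD 3, within CAC (1150 to 1860 CPM) and below NOR (4174 to 6623 CPM). A count of 0 DEGs can thus occur in a group with libraries far from NOR. The treated and untreated tumor groups differed in 537 DEGs (AM vs. CAC, 3.66%), 239 higher (1.63%) and 298 lower (2.03%) in AM. Below, genes that rose or fell in these comparisons are DEGs, a stricter limit than the unadjusted p of the AM vs. NOR counts, so the counts are not on 1 scale.

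Of the 4 AM libraries, AM 4 limited the separation from NOR most. Without it, 995 genes lay wholly above and 969 wholly below NOR, whereas leaving out AM 1, AM 2, or AM 3 gave 428, 508, and 514 above and 478, 574, and 717 below. A fit without AM 4 gave 13 DEGs up and 1 down, and the 5 with the lowest FDR were Entpd1, Apod, Slc39a9, Slco2a1, and Csf3r. Entpd1, the ectonucleotidase CD39, was at 30.1, 24.1, 28.5, and 25.8 CPM in NOR and 84.7, 81.4, 91, and 27.5 CPM in AM. Apod, a lipid-binding lipocalin, was at 80.1, 74.8, 83.2, and 72.6 CPM in NOR and 183, 167, 178, and 72.8 CPM in AM. For both genes AM 1 to AM 3 stood close together above NOR and AM 4 fell inside the NOR range. Slc39a9, a zinc transporter, showed the same order, with 9.23 to 11.4 CPM in NOR, 29.8, 32, and 31.2 CPM in AM 1 to AM 3, and 10.2 CPM in AM 4. In CAC it was at 7.53 to 14.1 CPM. In bulk muscle, more cells of a type and more RNA per cell cannot be told apart. These genes were taken from the fit without AM 4, so their values are a description, and AM 4 is kept in every value unless stated.

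The genes with the lowest p combined a moderate difference with a small spread. Fosl2, a transcription factor of the AP-1 family (chr5:32135801-32157842, GRCm38), had 33.8, 33.2, 30.5, and 29.3 CPM in NOR and 49.9, 49.6, 54.8, and 49.3 CPM in AM. The groups did not overlap, with a log2 fold change of 0.69 ± 0.08 (± SE, here and below; FDR = 0.124, edgeR). Cnppd1, which encodes a protein with a cyclin-like domain, had 21.4, 19.4, 22.5, and 23.2 CPM in NOR and 40.4, 41.3, 39.3, and 34.1 CPM in AM, a log2 fold change of 0.85 ± 0.10 (FDR = 0.124). Sema3g, a secreted semaphorin made by arterial endothelium, had 55, 48.6, 57, and 55.4 CPM in NOR and 98.2, 91.8, 96.7, and 77.8 CPM in AM (0.77 ± 0.10, FDR = 0.18). In each of the 3 genes every AM library exceeded every NOR library. The same 3 genes rose in CAC vs. NOR, by 0.83 ± 0.18, 1.13 ± 0.19, and 1.25 ± 0.13 on the log2 scale (FDR = 0.0203, 0.00952, and 0.00214), and AM vs. CAC gave FDR values of 0.687, 0.436, and 0.0702. They were among the DESeq2 calls in AM vs. NOR, together with Hdc and Cdkn1a as the 5 with the lowest FDR there. Without AM 1 and AM 3, 0 genes were DEGs in edgeR, with 362 higher and 262 lower at an unadjusted p under 0.05.

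Hdc, the histidine decarboxylase that makes histamine (chr2:126593667-126619299), had 1.0, 2.11, 1.14, and 1.97 CPM in NOR and 6.72, 5.57, 8.62, and 6.28 CPM in AM, so that even the lowest AM library exceeded the highest NOR library. Its log2 fold change was 2.12 ± 0.29 (FDR = 0.208) and 1.93 without AM 1 and AM 3 (FDR = 0.989). Cdkn1a, the cell cycle inhibitor p21 (chr17:29090976-29100727), had 16.3, 16.9, 10.8, and 12.8 CPM in NOR, 39.1, 40.4, 24.2, and 52.1 CPM in AM, and 75.5, 47.1, 114, and 197 CPM in CAC. AM lay between NOR and CAC, apart from an overlap of AM 4 with CAC 2, at 1.47 ± 0.24 against NOR (FDR = 0.504) and -1.46 ± 0.42 against CAC (FDR = 0.0886). The value against NOR was 1.73 without AM 1 and AM 3 and 1.25 without NOR 3 and NOR 4 (FDR = 0.811 and 0.597). Of the other 22 members of the list of p53 and growth arrest genes, 0 were higher and 1 lower at p under 0.05 (Ccng1, cyclin G1, -0.50), near the 5.06% and 4.13% of all genes.

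**Figure D1:**
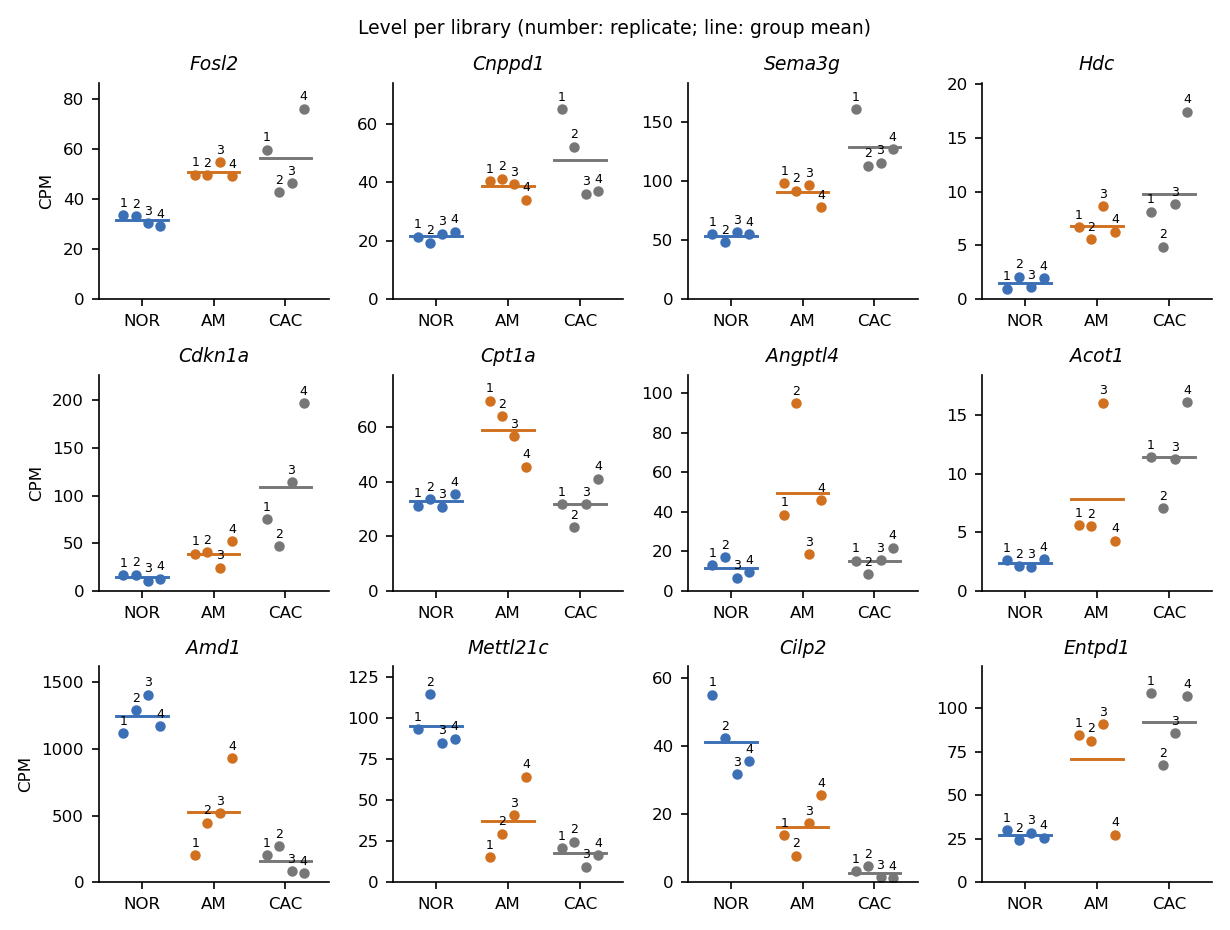
CPM of 12 genes in each NOR, AM, and CAC library, with the replicate number above each point and the group mean as a line. Fosl2, Cnppd1, Sema3g, Hdc, and Cpt1a have AM values that clear all NOR values, Amd1 and Mettl21c spread widely in AM with AM 4 nearest to NOR, and Entpd1 in AM 4 lies at the NOR level.

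Ranked by effect size, the 12 highest and 12 lowest genes came from 217 candidates above and 264 below NOR that had a mean of at least 1 CPM, groups without overlap, an unadjusted p under 0.05, the same direction in both labelled strains, and no place on a cell type marker list. Since p and separation chose them, their values are a description. The labels place AM 1 and AM 3 in different strains, so a gene that differs only in these 2 libraries also has the same direction in both. The highest was Gm10260 (6.72), a predicted gene for which 96.6% of the 31-base words also occur in other genes, and which had 261, 1.59, 163, and 1.49 CPM in AM, high only in AM 1 and AM 3. Without these libraries its log2 fold change was 0.61 (FDR = 0.989). Below it stood genes of inflammation and its signals. Il1b, the cytokine interleukin-1 beta, had 0.271, 0.676, 0.46, and 0.473 CPM in NOR and 4.24, 3.51, 1.81, and 0.873 CPM in AM (2.46 ± 0.53). Csf3r, the receptor of the neutrophil growth factor G-CSF, had 2.0, 2.41, 2.44, and 2.36 CPM in NOR and 12.7, 12.1, 8.11, and 3.36 CPM in AM (1.99 ± 0.38). Ackr1, an atypical chemokine receptor of venules, was at 4.33 to 5.98 CPM in NOR and 37, 14.4, 32.9, and 6.28 CPM in AM, and its log2 fold change of 2.06 was 0.94 without AM 1 and AM 3. Ltb4r1, a receptor of leukotriene B4, had the smallest fold change of the 12 (1.32 ± 0.44).

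**Figure D2:**
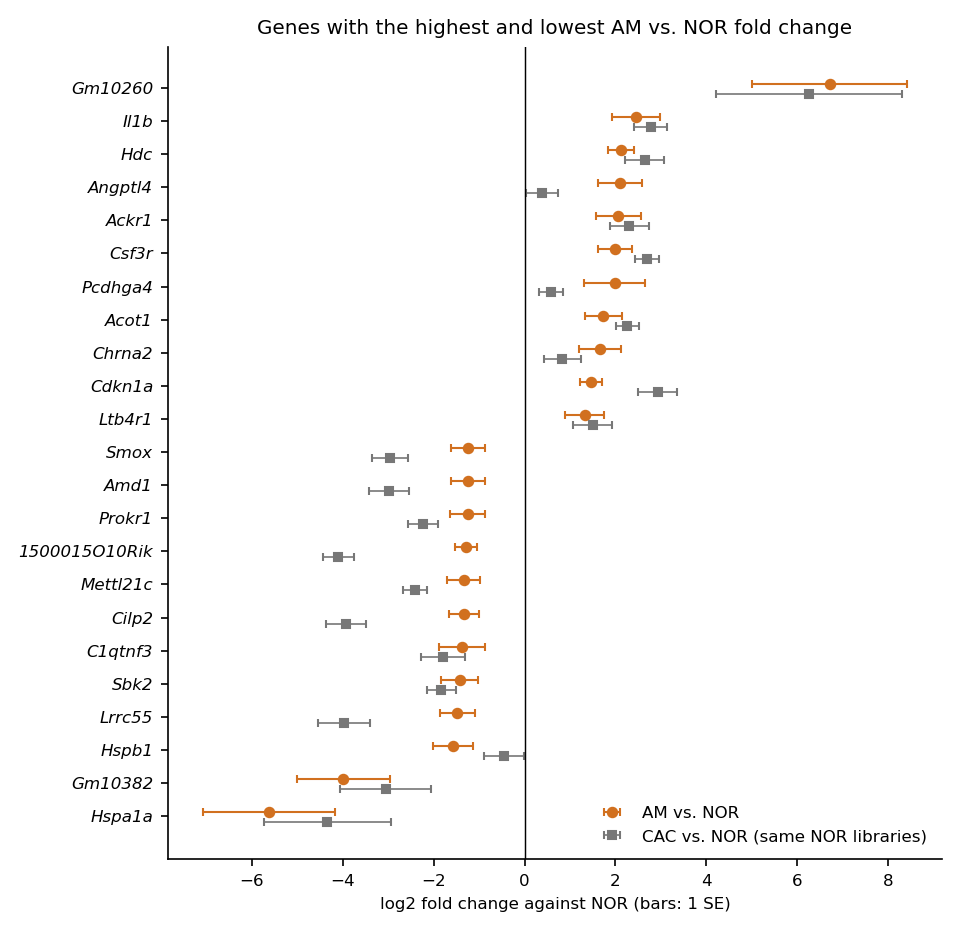
Log2 fold changes of 23 of the 24 highest and lowest genes of AM vs. NOR (circles) and of CAC vs. NOR (squares) with bars of 1 SE, where both comparisons use the same NOR libraries. Cilp2, 1500015O10Rik, Lrrc55, Amd1, and Smox lie farther below 0 in CAC than in AM, whereas Angptl4 and Hspb1 lie nearer to 0 in CAC.

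The remaining genes at the top were of other kinds. Chrna2, a neuronal acetylcholine receptor subunit, had 0.947, 0.791, 0.30, and 0.709 CPM in NOR and 1.14, 1.76, 3.74, and 2.02 CPM in AM (1.66 ± 0.45). Pcdhga4, a protocadherin of a gene cluster with shared exons, rested on AM 3 at 28.3 CPM, with 3.34 to 5.16 CPM in the other AM libraries and 2.08 to 2.87 CPM in NOR. Other genes contain 67.5% of its 31-base words. Without AM 1 and AM 3 its log2 fold change of 1.99 was 0.57. Angptl4 and Acot1, also among the 12, belong to fatty acid metabolism.

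Genes of fatty acid use were higher in AM than in NOR in 9 of 43 tested members at an unadjusted p under 0.05 and lower in 0, beside 5.06% and 4.13% of all genes. AM 2, the library highest in Angptl4 and Cd36, was also highest in the summed adipocyte markers (9666 CPM, with 2986 to 4450.0 CPM in the other AM libraries), whose part in these values was not tested. The median of the fatty acid list was 0.15, with 37 of the 43 above 0, and in CAC vs. NOR it was 0.28. The count was 6 without AM 1 and AM 3, beside 362 of 15116 genes in that fit, with a median of 0.14. Angptl4, a secreted inhibitor of lipoprotein lipase that fatty acids induce (chr17:33773750-33781830), had 13.2, 17, 6.71, and 9.6 CPM in NOR, 38.6, 95.1, 18.6, and 46 CPM in AM, and 15.3, 8.33, 15.5, and 21.9 CPM in CAC. All AM libraries exceeded all NOR libraries, by 2.11 ± 0.49, and 3 of 4 exceeded every CAC library, by 1.71 ± 0.48 (AM vs. CAC, FDR = 0.0824). The value against NOR was 2.62 without AM 1 and AM 3 (FDR = 0.811).

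Cpt1a, the carnitine palmitoyltransferase that admits long-chain fatty acids into mitochondria, was not on the list and was chosen after its values were seen, as the gene with the fifth lowest p. It had 31.3, 33.5, 30.8, and 35.6 CPM in NOR, 69.8, 64.1, 56.8, and 45.5 CPM in AM, and 31.7, 23.3, 31.8, and 41.1 CPM in CAC. AM exceeded NOR by 0.86 ± 0.14 (FDR = 0.504) and rose above CAC by 0.89 ± 0.19 (FDR = 0.0347), while CAC and NOR differed by -0.04 ± 0.16 (FDR = 0.903). Cpt1b, the muscle form, had a log2 fold change of 0.05 ± 0.19, whose sign changed with the libraries left out. Acot1 and Acot2, thioesterases that split fatty acyl-CoA in the cytosol and in mitochondria, followed another order. Acot1 had 2.62, 2.09, 2.08, and 2.7 CPM in NOR, 5.65, 5.52, 16.1, and 4.3 CPM in AM, and 11.4, 7.05, 11.3, and 16.1 CPM in CAC, at 1.74 ± 0.41 against NOR and -0.54 ± 0.43 against CAC (FDR = 0.523). Acot2 had 17.8, 17.5, 12.1, and 15.3 CPM in NOR and 21.8, 32.8, 52.9, and 23.4 CPM in AM (1.07 ± 0.28). The 2 are neighbors on chromosome 12 and share part of their sequence (22.8% and 37.8% of 31-base words shared), so reads may be split between them. Without AM 1 and AM 3 their values were 1.07 and 0.86 (FDR = 0.989 and 0.989).

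Among the other lipid genes, the fatty acid transporter Cd36 had 406, 335, 279.5, and 412 CPM in NOR and 397, 660.2, 575, and 429 CPM in AM (0.53 ± 0.19, FDR = 0.531). The lipid droplet proteins Plin2 and Plin5 stood at 0.45 and 0.54, the uncoupling protein Ucp2 at 0.73, and the malonyl-CoA decarboxylase Mlycd at 0.45. Ucp2 was at 1.19 without NOR 3 and NOR 4, and Mlycd at 0.29 in that setting, 0.24 without AM 3, and 0.26 without AM 1 and AM 3. Pdk4, which turns pyruvate dehydrogenase off, spread widely, with 426, 476, 89.1, and 218 CPM in NOR and 307, 674, 669, and 821 CPM in AM (1.04 ± 0.50, FDR = 0.555, and 0.47 without NOR 3 and NOR 4). Enzymes of the beta-oxidation spiral did not pass p under 0.05, with 0.29 for Acadl, 0.09 for Acadm, and 0.15 for Hadha. Without AM 3 these were 0.14, -0.03, and 0.01, without AM 1 and AM 3 0.17, 0.03, and 0.07, and without NOR 3 and NOR 4 0.16, -0.02, and 0.02.

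Genes of the interleukin-6 and STAT3 response, a list that includes Stat3 and the kinase Jak2, were higher in 6 and lower in 3 of 23 tested members at p under 0.05. Over all genes these shares were 5.06% and 4.13%. Their median was 0.27 in AM vs. NOR and 0.93 in CAC vs. NOR. Leaving out AM 1 and AM 3, 3 were higher and 0 lower, beside 362 and 262 of 15116 genes, at a median of 0.17. Stat3, the transcription factor itself, had 99.6, 103, 101, and 95 CPM in NOR and 162, 146, 149, and 111 CPM in AM without overlap (0.52 ± 0.12, FDR = 0.518). Bcl3, a nuclear cofactor of NF-kappaB, had 5.79, 11.4, 9.53, and 7.31 CPM in NOR and 25.4, 16.8, 17.7, and 12.4 CPM in AM, also without overlap (1.09 ± 0.27). Lrg1, a secreted acute-phase glycoprotein, had 30.0, 46.6, 52.7, and 78.6 CPM in NOR and 174, 176, 131, and 59.1 CPM in AM (1.38 ± 0.39), and Osmr, the oncostatin M receptor, 20.5, 24.1, 27.5, and 29.1 CPM in NOR and 44.9, 52.6, 55, and 23.1 CPM in AM (0.80 ± 0.26). In both of these AM 4 fell inside the NOR range. Lcn2, the iron-binding lipocalin that neutrophils also carry, was at 0.731, 1.04, 2.12, and 4.44 CPM in NOR and 23.6, 17, 26.2, and 2.28 CPM in AM (3.04 ± 0.80). The 3 lower members were Socs1, a feedback inhibitor of cytokine signaling with its highest value in NOR 2 (2.46, 52.8, 9.01, and 8.42 CPM in NOR and 2.06 to 5.1 in AM), Fos (-1.87), and the kinase Jak2 (-0.27). Socs1 was at -2.25 and, without NOR 2, at -0.79. Fos was at -3.06 without AM 4, -0.80 without NOR 3 and NOR 4, and -1.18 without AM 1 and AM 3, and Jak2 at -0.16 in the last setting and -0.13 without NOR 3 and NOR 4. Il6ra, the interleukin-6 receptor, had 9.34, 15.3, 18.3, and 22.1 CPM in NOR and 28.8, 17.8, 19.8, and 18.6 CPM in AM (0.39 ± 0.27, FDR = 0.658, 0.17 without AM 1 and AM 3, and 0.80 without NOR 3 and NOR 4) and fell in AM vs. CAC by 1.65 on the log2 scale (FDR = 0.00762).

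Neutrophil and erythroid markers were also higher in most AM libraries. Summed over 10 neutrophil markers, the level was 13.1, 12.5, 28.1, and 45.4 CPM in NOR and 69.5, 191, 302, and 23.3 CPM in AM, and 8 of the 10 were higher at p under 0.05, beside 5.06% of all genes (median 2.67). The alarmin S100a8, for example, had 1.57, 0.874, 3.78, and 4.52 CPM in NOR and 10.7, 32.2, 30.1, and 2.19 CPM in AM. Summed over 9 erythroid markers, which include the globins, the level was 1153 to 1460.0 CPM in NOR and 2565, 16070.0, 5413, and 1045 CPM in AM, and 8 of the 9 were higher, beside the same 5.06% (median 2.52). With limma-voom, 1 of the 10 neutrophil and 3 of the 9 erythroid markers were higher (medians 2.49 and 1.73), beside 605 of 14738 genes. For both lists AM 2 and AM 3 exceeded NOR most and AM 4 stood inside the NOR range for neutrophil and just below it for erythroid markers. The part of these cells in Il1b, Csf3r, Lcn2, Entpd1, and the other genes of inflammation was not tested.

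Of 10 Schwann cell and nerve markers, 5 were higher and 0 lower, where 5.06% of all genes were higher and 4.13% lower, with a median of 0.47. The periaxin gene Prx, of the myelin sheath, had 44.4, 35.2, 38.4, and 39.7 CPM in NOR and 53, 82.3, 45.3, and 61.6 CPM in AM without overlap (0.63 ± 0.18, FDR = 0.518). Of 10 endothelial markers 4 were higher and 0 lower, read against the same shares (median 0.21), and Pecam1, the adhesion molecule CD31, had 314, 270.1, 299.9, and 248 CPM in NOR and 404, 371, 358, and 368 CPM in AM (0.42 ± 0.10). Markers of adipocytes (12 tested), B cells (9), T cells (10), macrophages (10), mast cells (5), and the male sex (4) had 0 members at p under 0.05 in either direction. Adipocyte markers nonetheless had a median of 0.58, with 10 of 12 above 0, and their sum was 3473 to 7858 CPM in NOR and 3520.0, 9666, 2986, and 4450.0 CPM in AM. B cell markers were uneven, with 3.92 CPM in NOR 1, 278 to 299.8 CPM in the other NOR libraries, and 43.4 to 563 CPM in AM. The liver markers, at 14 tested of 29 found, had 8 higher members, beside 5.06% of all genes, and a median of 4.08. Without AM 1 these values were 1 and 0.62, in a fit with 479 of 14879 genes higher.

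**Figure D3:**
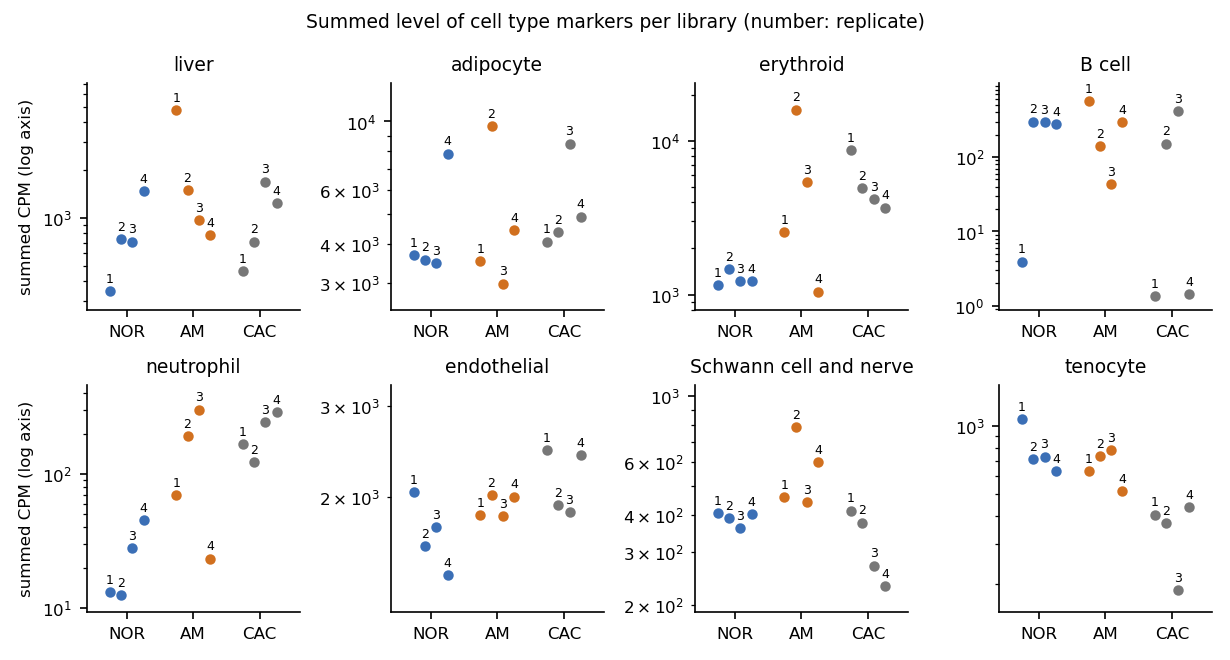
Summed CPM of 8 marker lists in each NOR, AM, and CAC library on a log axis, with the replicate number above each point. Of the 12 libraries AM 1 is highest in liver markers and AM 2 in erythroid markers, while AM 2 and AM 3 lie above NOR but near CAC in neutrophil markers (122 to 289 CPM in CAC), AM 3 lies within CAC in erythroid markers (3682 to 8718 CPM), and NOR 1 is low in B cell markers, as are CAC 1 and CAC 4 (1.36 and 1.43 CPM).

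Toward the bottom of the ranking, 2 enzymes of polyamine metabolism stood far below normal. Amd1, the S-adenosylmethionine decarboxylase that feeds spermidine and spermine synthesis (chr10:40287458-40302186), had 1119, 1293, 1408, and 1172 CPM in NOR, 204, 448, 520.0, and 929.7 CPM in AM, and 206, 269.8, 84.7, and 69.5 CPM in CAC. Smox, the spermine oxidase, had 460.4, 460.0, 526, and 469 CPM in NOR, 83.3, 215, 152, and 357 CPM in AM, and 88.7, 94.4, 32.8, and 31.3 CPM in CAC. In both genes all AM libraries lay below NOR, AM 1 lowest and AM 4 highest, at -1.24 ± 0.38 and -1.24 ± 0.37 (FDR = 0.518 and 0.518), and -0.84 and -0.73 without AM 1 and AM 3 (FDR = 0.989 and 0.989). Of the 31-base words of Amd1, 82.8% lie in other genes too, so its count is uncertain. Both fell in CAC vs. NOR (-2.99 ± 0.44 and -2.96 ± 0.40), and AM vs. CAC did not reach the FDR limit (FDR = 0.115 and 0.105). Sms, the spermine synthase, had 64.7, 70.8, 67.9, and 67.2 CPM in NOR and 42.3, 53.2, 52.6, and 60.4 CPM in AM (-0.37 ± 0.11), and Odc1, the ornithine decarboxylase that opens the pathway, had a log2 fold change of -0.75 ± 0.33. With AM 1 and AM 3 left out, Sms was at -0.23 and Odc1 at -0.28. Over the list of amino acid and polyamine metabolism, 5 of 33 members were lower and 2 higher at p under 0.05, against 4.13% and 5.06% of all genes, with a median of -0.13.

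Mettl21c, a muscle lysine methyltransferase (chr1:44009408-44020034), had 93.7, 115, 85.2, and 87.6 CPM in NOR and 15.6, 29.8, 40.9, and 64.4 CPM in AM (-1.33 ± 0.36), and 20.7, 24.8, 9.67, and 16.7 CPM in CAC. Sbk2, a serine/threonine kinase, had 125, 155, 146, and 139 CPM in NOR and 17, 49.7, 48.5, and 94.1 CPM in AM (-1.43 ± 0.41). Again AM 1 was farthest from normal and AM 4 nearest. With AM 2 and AM 4 alone, Sbk2 was at -0.96 (FDR = 0.989). Lrrc55, an auxiliary subunit of BK potassium channels, had 2.49, 1.47, 2.1, and 0.861 CPM in NOR, 0.403, 0.724, 0.573, and 0.745 CPM in AM, and 0.136, 0.178, 0.0954, and 0.0315 CPM in CAC, and rose in AM vs. CAC by 2.47 ± 0.56 (FDR = 0.0439). Prokr1, a receptor of prokineticins, had 3.73, 2.72, 2.84, and 3.27 CPM in NOR and 0.448, 1.76, 1.55, and 1.49 CPM in AM (-1.25 ± 0.38). C1qtnf3, a secreted C1q/TNF-related protein, was at -1.38 ± 0.51 and, without AM 1 and AM 3, at -0.76. Myf6, the myogenic factor MRF4, followed the opposite order, with 109 to 119 CPM in NOR, 69.8 to 96.5 CPM in AM, and 235 to 318 CPM in CAC. All 4 AM libraries lay below NOR (-0.40 ± 0.11) and fell in AM vs. CAC by 1.62 on the log2 scale (FDR = 0.00223). Of 19 genes of developing and stressed muscle 4 were lower and 0 higher at p under 0.05 (4.13% and 5.06% over all genes), with a median of -0.01. Besides Myf6 these were Hspb1, the small chaperone Cryab (247 to 441 CPM in NOR and 161 to 302 CPM in AM, -0.54, -0.26 without AM 1 and AM 3, and -0.32 without NOR 3 and NOR 4), and the actin-binding Xirp1 (328, 225, 546, and 582 CPM in NOR and 259.6, 181, 169, and 182 CPM in AM, -0.46 without NOR 3 and NOR 4).

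The list with the lowest median held heat shock genes, chaperones that refold proteins. Of 20 tested members, 13 were lower in AM and 0 higher at p under 0.05, against 4.13% lower over all genes, with a median of -0.58 and 19 of 20 below 0. Hspa1a, the inducible HSP70, had 31.3, 32, 2294, and 2045 CPM in NOR and 17.9, 27.4, 24.4, and 19.2 CPM in AM. NOR 3 and NOR 4 carried the difference, which was -5.63 ± 1.45 with and -0.49 without them (FDR = 0.518 and 0.597). Other genes contain 70.1% of its 31-base words and 68.1% of those of its neighbor Hspa1b (-5.68 ± 1.49, and -0.35 without NOR 3 and NOR 4), so the 2 count as 1 signal. Hspb1, the small chaperone HSP27, had 281, 228, 822, and 932 CPM in NOR, 158, 204, 173, and 223 CPM in AM, and 349.7, 516, 373, and 417 CPM in CAC. It lay below NOR in every AM library (-1.57 ± 0.45, and -0.41 without NOR 3 and NOR 4, FDR = 0.597) and fell in AM vs. CAC by 1.12 on the log2 scale (FDR = 0.012). Its words are shared to 55.4%. Hsph1, the chaperone HSP105, had 84.1, 71.9, 89.4, and 87.7 CPM in NOR and 31.5, 57.5, 37, and 58.8 CPM in AM. NOR 3 and NOR 4 did not stand out there, and the value of -0.84 ± 0.20 was -0.74 without them and -0.50 without AM 1 and AM 3 (FDR = 0.597 and 0.989). Hspa8, the constitutive HSC70, had 1259, 1278, 1442, and 1328 CPM in NOR and 548, 1024, 614, and 1039.6 CPM in AM (-0.71 ± 0.22, and -0.34 without AM 1 and AM 3). Over the list, 3 members were lower at p under 0.05 without NOR 3 and NOR 4 (median -0.31), and 5 without AM 1 and AM 3 (median -0.37). Over all genes, 588 of 15148 and 262 of 15116 were lower in these fits.

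As most tested members of this list were lower, their promoters were read from RefSeq (GRCm38.p6, 250 bases before to 50 after each start site) for the paired heat shock unit GAANNTTC, which reads the same on both strands. It was present in the promoter of 11 of the 15 members with an entry, and of 9 of the 10 of these that were lower in AM at p under 0.05, while 9.04% of 27025 genes had it. A match is a description and not a binding site. The promoters of Hspa1a, Hspb1, and Hsph1, the members followed above, are given 5′ to 3′ in the direction of the gene with the unit in capitals.
Hspa1a (chr17:34972107-34972406, minus strand): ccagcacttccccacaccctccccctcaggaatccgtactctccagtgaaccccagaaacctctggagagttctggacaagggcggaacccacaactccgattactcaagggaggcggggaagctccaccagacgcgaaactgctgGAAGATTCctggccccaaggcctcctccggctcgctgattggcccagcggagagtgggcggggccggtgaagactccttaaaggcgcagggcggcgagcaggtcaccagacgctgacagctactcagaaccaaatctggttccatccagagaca
Hspb1 (chr5:135887669-135887968, plus strand): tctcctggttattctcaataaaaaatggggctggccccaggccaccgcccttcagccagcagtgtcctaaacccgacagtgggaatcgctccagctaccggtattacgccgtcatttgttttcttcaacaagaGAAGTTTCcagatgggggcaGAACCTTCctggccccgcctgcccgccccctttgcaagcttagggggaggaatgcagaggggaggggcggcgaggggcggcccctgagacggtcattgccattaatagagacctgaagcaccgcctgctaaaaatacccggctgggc
Hsph1 (chr5:149636287-149636586, minus strand): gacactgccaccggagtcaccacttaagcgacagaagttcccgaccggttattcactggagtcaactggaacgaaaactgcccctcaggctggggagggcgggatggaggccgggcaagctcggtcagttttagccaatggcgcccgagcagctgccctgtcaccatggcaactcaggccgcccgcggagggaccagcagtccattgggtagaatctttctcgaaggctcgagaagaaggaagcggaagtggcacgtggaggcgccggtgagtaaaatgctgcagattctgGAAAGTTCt
Hspb1 holds the unit at 2 places, Hspa1a at 1 before the start site, and Hsph1 at 1 after the start site. The Hspa1b promoter has the same base as that of Hspa1a at 296 of 300 positions. By the same search, the STAT unit TTCNNNGAA was in the promoter of 2 of 20 genes of the interleukin-6 and STAT3 list with an entry (9.55% of all genes), namely Socs3 and Steap4, and the DR1 direct repeat in 0 of 35 genes of fatty acid use (0.932% of all genes). The glucocorticoid unit ACANNNTGT was in 5 of 20 genes of the glucocorticoid response (7.9% of all genes), namely Glul, Lcn2, Map3k6, Mt1, and Sgk1, and the E-box CACGTG in 5 of 17 circadian genes (8.09% of all genes).

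**Figure D4:**
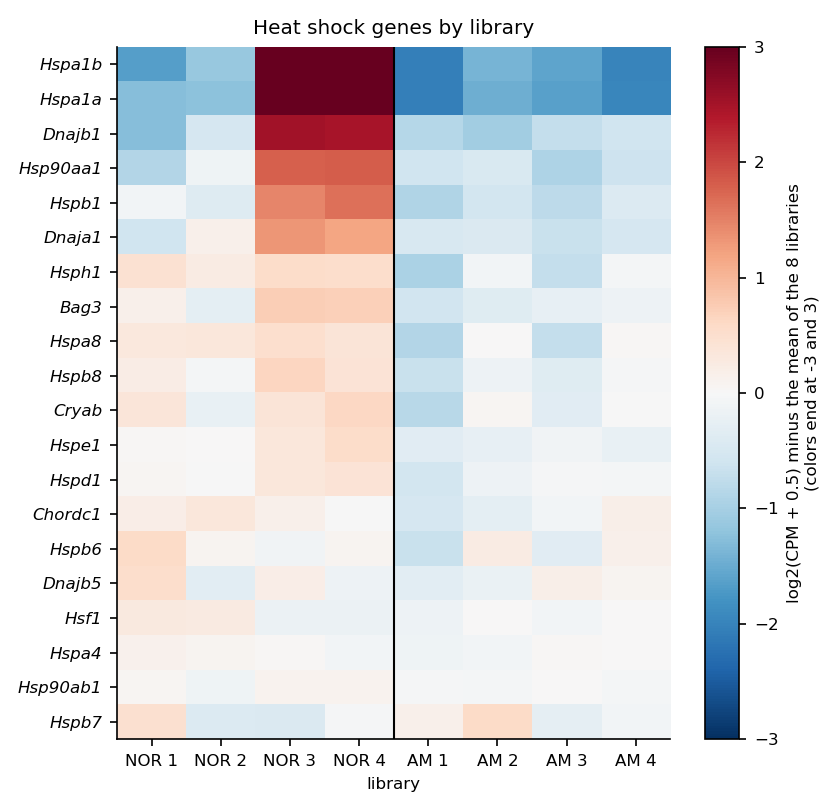
Heat shock genes (rows, ordered by log2 fold change of AM vs. NOR) in the 8 libraries, as log2(CPM + 0.5) minus the mean of the 8, with colors ending at -3 and 3. NOR 3 and NOR 4 are far above the rest in the upper rows, from Hspa1b to Dnaja1, and AM 1 is lowest in many of the others.

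Of 42 collagen chains tested, the triple-helical proteins of the muscle matrix, 11 were lower in AM than in NOR at p under 0.05 and 0 higher, beside 4.13% and 5.06% of all genes, with a median of -0.30. By the stricter DEG limit, 25 chains fell and 0 rose in CAC vs. NOR (5.13% and 4.32% over all genes, median -1.61), and 17 rose and 0 fell in AM vs. CAC (1.63% and 2.03% over all genes, median 1.28). Col6a1 and Col6a2, chains of the microfibrils around muscle fibers, had 343, 264, 255, and 284 CPM and 302, 228, 219, and 235 CPM in NOR. In AM they had 181, 165, 200.1, and 254 CPM and 139, 130.1, 152, and 214 CPM, below NOR in every library, with AM 4 nearest. Their log2 fold changes were -0.51 ± 0.15 and -0.62 ± 0.17 in AM vs. NOR, against -2.35 ± 0.16 and -2.63 ± 0.18 in CAC vs. NOR. For the main fibrillar chain Col1a1 the groups overlapped, with 877, 686, 511, and 583 CPM in NOR, 399.8, 278, 578, and 517 CPM in AM, and 66.6, 52.3, 39.6, and 60.2 CPM in CAC (-0.57 ± 0.24, FDR = 0.535). In the fit without AM 1 and AM 3, 2 chains of 42 were lower, beside 262 of 15116 genes, and the median was -0.28. 

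Of 35 matrix and tenocyte genes, 6 were lower in AM and 2 higher, against 4.13% and 5.06% of all genes (median -0.09). Cilp2, a cartilage intermediate layer protein (chr8:69880369-69887687), had 55.1, 42.5, 31.8, and 35.6 CPM in NOR, 13.9, 7.86, 17.4, and 25.6 CPM in AM, and 3.4, 4.69, 1.53, and 1.32 CPM in CAC. The 3 groups did not overlap in any library, and AM lay -1.34 ± 0.33 from NOR and rose by 2.57 ± 0.51 against CAC (FDR = 0.0281). 1500015O10Rik, which is not on that list and encodes the secreted peptide ECRG4, had 7.74, 6.07, 5.26, and 5.2 CPM in NOR, 1.84, 2.01, 3.61, and 2.43 CPM in AM, and 0.499, 0.40, 0.172, and 0.347 CPM in CAC, again without overlap. It was at -1.28 ± 0.24 against NOR, -1.42 without AM 1 and AM 3 (FDR = 0.811), and rose by 2.80 ± 0.40 against CAC (FDR = 0.0105). Chad, the cartilage protein chondroadherin, had 47.4, 51.9, 38.8, and 34.7 CPM in NOR and 12.6, 27.9, 21.9, and 21.8 CPM in AM (-1.03 ± 0.23, FDR = 0.518). Enzymes that build collagen followed with P4ha1, a prolyl hydroxylase subunit, at -0.58 ± 0.15, the chaperone Serpinh1 at -0.46 ± 0.14, and the cross-linking enzyme Loxl2 at -0.51 ± 0.16. Timp1, an inhibitor of matrix proteases, and Lox, another cross-linking enzyme, stood above NOR (1.05 and 0.61). Lox was at 0.39 without AM 2 and 0.38 without NOR 3 and NOR 4. AM 2 and AM 4 alone gave 0.65 for Timp1 and -0.27 for Serpinh1. Of 7 tenocyte markers 2 were lower and 0 higher, against the same 4.13% and 5.06% (median -0.47). Their sum was 630.4 to 1069 CPM in NOR, 515 to 779 in AM, and 187 to 437 in CAC. How much tendon each sample held was not tested.

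Of the mitochondrial lists, that of the ribosome stood above the share of all genes. Of 77 genes of the mitochondrial ribosome, which translates the proteins encoded in mitochondrial DNA, 11 were lower and 0 higher, 68 lay below 0, and the median was -0.15. Mrps12 was the member with the lowest p, with 33.4, 29.7, 28.7, and 30.3 CPM in NOR and 17.9, 20.4, 14.3, and 21.8 CPM in AM (-0.70 ± 0.14, FDR = 0.518; -0.51 without AM 1 and AM 3, FDR = 0.989). Mrpl36 had 33.5, 30.2, 27.3, and 28.8 CPM in NOR and 22.6, 22.1, 25.4, and 23.7 CPM in AM (-0.34 ± 0.09). Of 85 respiratory chain subunits 5 were lower and 0 higher, against 4.13% and 5.06% of all genes, while 80 lay below 0 (median -0.18). Ndufs4, a subunit of complex I, had 134, 118, 109.7, and 112 CPM in NOR and 71.2, 81.4, 100.3, and 107 CPM in AM (-0.39 ± 0.13), and cytochrome c (Cycs) 373, 355, 315, and 295 CPM and 164, 218, 286, and 287 CPM (-0.48 ± 0.18). Of 23 citric acid cycle genes 0 passed p under 0.05, and 19 lay below 0 (median -0.12). In CAC vs. NOR, 2 mitochondrial ribosome genes, 12 respiratory chain subunits, and 5 citric acid cycle genes were DEGs that fell, beside 5.13% of all genes. This is a stricter limit than in the AM counts, and the medians were -0.08, -0.38, and -0.55. With AM 1 and AM 3 left out, 2 mitochondrial ribosome genes and 1 subunit were lower (medians -0.12 and -0.15), beside 262 of 15116 genes. Without NOR 3 and NOR 4, 16 mitochondrial ribosome genes and 23 subunits were lower, beside 588 of 15148 genes.

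**Figure D5:**
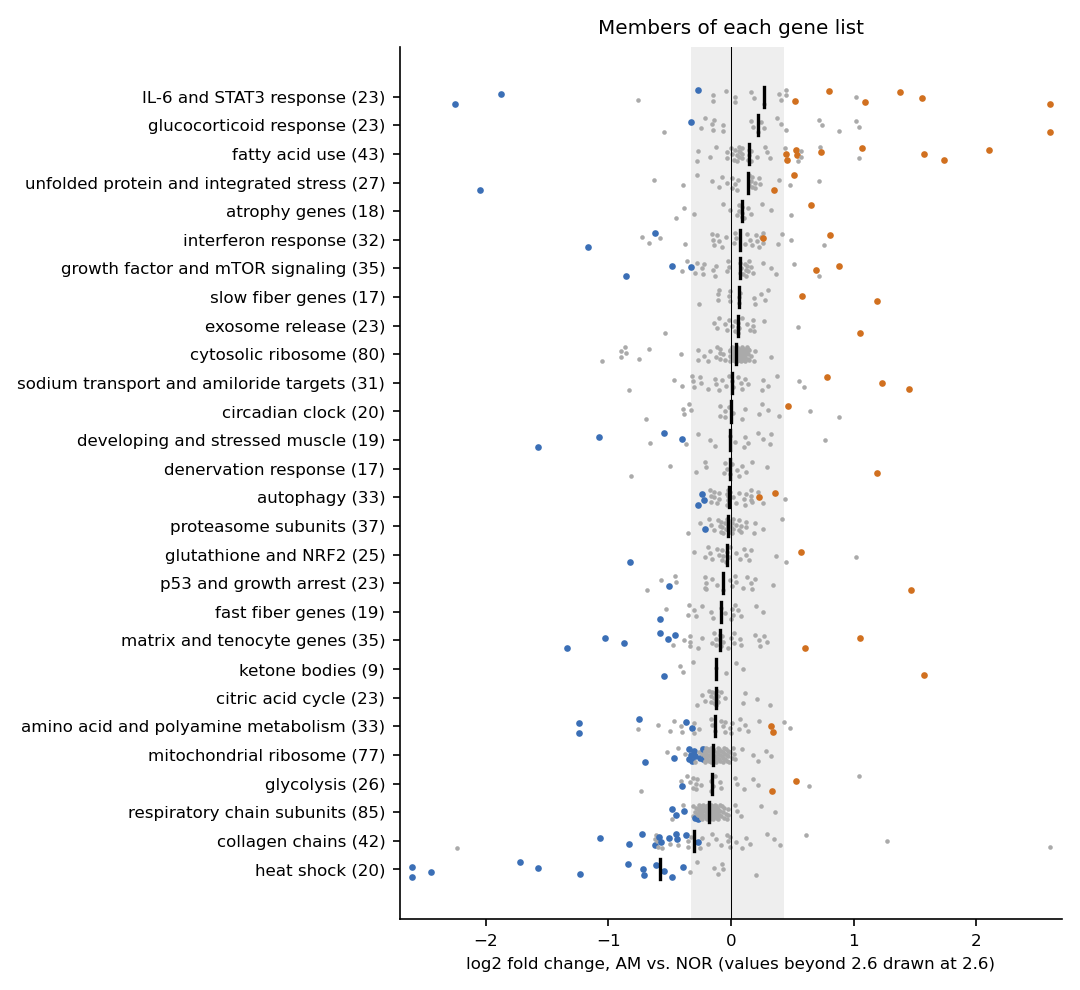
Log2 fold changes of AM vs. NOR for the members of 28 gene lists (number tested in parentheses), with colored points for members at an unadjusted p under 0.05, black bars for medians, and a gray band from the 10% to the 90% quantile of all genes (-0.33 to 0.44). Values beyond 2.6 are drawn at 2.6. The heat shock and collagen lists have the lowest medians, -0.58 and -0.30, and the interleukin-6 and STAT3 list the highest, 0.27.

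Among genes of the muscle atrophy program, Fbxo32, the ubiquitin ligase atrogin-1, had 221, 164, 92.9, and 140.5 CPM in NOR, 316, 224, 220.0, and 200.2 CPM in AM, and 1123, 770.5, 926, and 887 CPM in CAC. AM overlapped NOR (0.65 ± 0.25, FDR = 0.531) and fell in AM vs. CAC by 1.94 on the log2 scale (FDR = 0.0032). The difference from NOR without AM 1 and AM 3 was 0.48 (FDR = 0.989), and 0.34 without NOR 3 and NOR 4 (FDR = 0.63). Trim63, the ligase MuRF1, had 529, 321, 269, and 342 CPM in NOR, 333, 295, 375, and 539.7 CPM in AM, and 2758, 1718, 2020.3, and 1803 CPM in CAC, and AM and NOR differed by 0.09 ± 0.24 (FDR = 0.929), with 0.22 without AM 1 and AM 3 and a negative sign in some other settings. Among 18 atrophy genes, Fbxo32 was the 1 member higher at p under 0.05 and 0 were lower, near the 5.06% and 4.13% over all genes, and the median was 0.09, against 0.35 in CAC vs. NOR. Cebpd, a transcription factor of the acute phase, had 31.4 to 95.9 CPM in NOR, 59.5 to 85.3 CPM in AM, and 242 to 458 CPM in CAC (0.41 ± 0.34 against NOR, and 0.23 to 0.91 with 1 library left out). Fkbp5, a target of the glucocorticoid receptor, had 29 to 124 CPM in NOR, 52.8 to 87.4 CPM in AM, and 166 to 312 CPM in CAC (0.22 ± 0.40, and 0.07 without AM 1 and AM 3). Of 23 glucocorticoid response genes 1 was higher (Lcn2) and 1 lower (Irs2), also near these shares, with a median of 0.22, and 13 of these genes were DEGs that rose in CAC vs. NOR (4.32% over all genes). NOR 4 was high in Cebpd (95.9 CPM) and Fkbp5 (124 CPM). Without NOR 3 and NOR 4, 11 of the 23 were higher (median 0.47), beside 610 of 15148 genes in that fit, with Cebpd at 0.96 (FDR = 0.597) and Fkbp5 at 0.56 (FDR = 0.597).

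Among 37 proteasome subunits, 0 were higher and 1 lower at p under 0.05, against 5.06% and 4.13% of all genes (Psma1, -0.21, and -0.09 without AM 1 and AM 3), with a median of -0.02. By the stricter DEG limit, 14 subunits rose in CAC vs. NOR (4.32% over all genes) and 18 fell in AM vs. CAC (2.03%). Of 80 cytosolic ribosome genes 0 passed p under 0.05 (median 0.04), although some differed between the set of AM 1 and AM 3 and the rest, such as Rps18 at 20.6, 287, 34.4, and 233 CPM in AM. Of 33 autophagy genes 2 were higher, the protease Ctsl (0.36) and the mitophagy receptor Bnip3l (0.23, and 0.14 without AM 2), and 3 lower, with a median of -0.02. Scaling by total counts gave 6 higher and 0 lower (median 0.04), beside 910 higher and 480 lower of 14738 genes. The glycolytic enzymes Eno3 and Pkm had 3795 to 5316 and 3255 to 4846 CPM in NOR, 2416 to 4076 and 2512 to 3839 CPM in AM, and 807 to 2193 and 1144 to 2096 CPM in CAC, at -0.36 ± 0.19 and -0.28 ± 0.18 (FDR = 0.568 and 0.634), and Eno3 at -0.22 without AM 1 and AM 3. Without AM 1 alone Eno3 was at -0.23 and Pkm at -0.17, and without NOR 1 Pkm was at -0.18. Of 26 glycolysis genes 2 were higher and 1 lower, against 5.06% and 4.13% of all genes (median -0.16). Actc1, the cardiac actin of developing muscle, was at 1509, 446, 536, and 464 CPM in NOR, 37.9, 344, 107, and 1367 CPM in AM, and 27.2, 30.6, 6.6, and 6.84 CPM in CAC, so AM alone spanned most of the range between CAC and NOR (-0.66 ± 0.95, 0.25 without AM 1 and AM 3, and -2.16 without AM 4).

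In the remaining lists few members passed, and most counts lay near the shares over all genes, 5.06% higher and 4.13% lower. Of 31 genes of sodium transport and amiloride targets, 3 were higher and 0 lower, all at low levels. These were the channel subunits Asic3 (0.216, 0.28, 0.32, and 0.388 CPM in NOR and 1.05, 0.502, 1.27, and 0.49 CPM in AM), Scnn1a (0.32 to 0.594 and 0.613 to 2.08 CPM), and Scnn1b (0.405 to 0.649 and 0.532 to 1.08 CPM), at 1.46, 1.23, and 0.78. With AM 1 and AM 3 left out, 0 of the 31 were higher and 2 lower, beside 362 and 262 of 15116 genes, and Asic3 and Scnn1a were at 0.72 and 0.56. Of 23 exosome release genes 1 was higher, Rab27b, a small GTPase of vesicle secretion (0.785, 0.528, 0.62, and 0.81 CPM in NOR and 1.05, 1.53, 2.15, and 0.936 CPM in AM, 1.05 ± 0.34). Of 32 interferon response genes 2 were higher (Ifi44, 0.81, and Irf9, 0.26) and 2 lower (Ifit3, -1.17, with 61.8% of its words shared, and Ifit1, -0.62). Among 35 genes of growth factor and mTOR signaling, the insulin receptor substrates Irs1 (106, 147, 73.8, and 79.9 CPM in NOR and 41.9, 61.2, 47.2, and 73 CPM in AM, -0.86 ± 0.25) and Irs2 (-0.32 ± 0.11) were lower, as was myostatin (Mstn, -0.48 ± 0.19). Igfbp4, a binding protein of insulin-like growth factors, was higher (187, 141, 162, and 206 CPM in NOR and 375, 253, 269, and 216 CPM in AM, 0.69 ± 0.19), as was the inhibin subunit Inhbb (0.89 ± 0.30, and 0.52 without AM 2). The unfolded protein list held the amino acid transporter subunit Slc3a2 (0.52 ± 0.16) and the sensor Ern1 (0.35 ± 0.13) as higher and Atf3 as lower, the last resting on NOR 3 and NOR 4 at 47.5 and 40.9 CPM (-0.14 without them). Of 25 glutathione and NRF2 genes, Gsr, the glutathione reductase, was higher (0.57 ± 0.15) and Srxn1, the sulfiredoxin, lower (45.6, 42.5, 63.9, and 80.8 CPM in NOR and 28.9, 31, 34, and 36.7 CPM in AM, -0.83 ± 0.21, and -0.41 without NOR 3 and NOR 4). Of 19 fast fiber genes 1 was lower (Myl1, -0.58), and of 17 slow fiber genes 2 were higher (Myh7b, 0.58, and Sln, 1.19). Sln, the inhibitor of the calcium pump named sarcolipin, was also the 1 higher member of 17 denervation genes, at 0.59 without NOR 3 and NOR 4 and 1.79 without NOR 1. Of the genes of these lists, the ones that moved by over 1.5 times without AM 1 and AM 3 were Gsr (0.37), Igfbp4 (0.45), Irs2 (-0.19), Ern1 (0.23), Ifit1 (-0.30), Myh7b (0.31), and Myl1 (-0.31).

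The labelled strains were compared within AM vs. NOR by an interaction term. Of 14738 genes 2 differed at an FDR of at most 0.05, Hspa1a and Hspa1b (interaction -6.20 and -6.42 on the log2 scale, FDR = 0.0106 and 0.0201), whose NOR values are high in the BALB/c-labelled mice NOR 3 and NOR 4. At an unadjusted p under 0.05 there were 1489, and DESeq2 called 127. As the labelled strains did not separate any gene 4-fold over all 16 libraries and the 4-library pattern crosses them, these are comparisons of the labels and may not be comparisons of strains. Label, tumor line, and library cannot be told apart here. Within the C57BL/6-labelled mice 853 genes were higher and 940 lower at p under 0.05, and within the BALB/c-labelled mice 264 and 314, where edgeR called 3 genes as DEGs (Hspa1b, Hspa1a, and Dnajb1, all lower). For a single gene an exact permutation test of 4 against 4 libraries, two-sided, cannot give a p under 0.0286, which each gene whose groups do not overlap reaches.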

How the data were processed

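Muscle of 4 AM, 4 NOR, 4 CAC, and 4 KD samples was sequenced on an Illumina HiSeq after oligo(dT) selection. The authors deposited 1 table with raw read counts per gene for all 16 libraries, which were used here, and with FPKM values, derived by the authors from those counts and not used here. The submitters' processing notes name fastp, Bowtie2, HISAT2, and StringTie 1.3.1 and the builds mm9 and GRCm38, without their roles. Strandedness is not given in the sources used here, so overlapping genes of opposite strands cannot be told apart.

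Counts were tested with edgeR 4.0.16 (R 4.3.3; quasi-likelihood F test, TMM, filterByExpr with a minimum count of 10 and total of 15) on the 8 libraries of each pair of groups, without covariates. DEGs were called at FDR 0.05 (Benjamini-Hochberg) with 1.5-fold or more in either direction. The NOISeq test of the study was not used. The members, gene lists, and rules were chosen with earlier results of these data known. Named genes were the 12 highest and 12 lowest by the rule given in the text, up to 4 list members with the lowest p in each direction, 12 genes of cachexia and metabolism, the 5 genes with the lowest FDR in an alternative that called DEGs, and single genes marked as chosen after their values were seen. Acadl, Acadm, Cnppd1, Col1a1, Cpt1b, Fosl2, Hadha, Hspa8, Loxl2, Mlycd, Odc1, Osmr, Pecam1, Plin2, Plin5, Prx, Sema3g, and Ucp2 fall outside this rule and were also chosen after their values were seen. A few of these genes are not reported here. Alternatives were DESeq2 1.42.0, limma-voom (limma 3.58.1), other scalings and filters, labelled strain as a covariate or alone, all 16 libraries, a replicate block, and leaving out each library. Leaving out AM 1 and AM 3 or NOR 3 and NOR 4 and a covariate for the 4-library pattern were added after seeing the data. Counts of replicates differed by more than sampling noise (chi-square per degree of freedom of at least 69.7), and none was a copy of another. Replicate numbers did not pair the samples. The labels do not say more of the origin of replicates, so p-values measure the spread between these samples. The edgeR fit was tested on simulated counts.

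Gene positions are from GENCODE M21 (GRCm38), which matched 14732 of the 14738 tested gene identifiers, and promoters from RefSeq (GRCm38.p6), with an entry for 81 of 101 named symbols looked up. Shared 31-base words were counted over the transcripts of that annotation.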

Additional observations from a re-analysis of the deposited data

Results flagged for a closer look

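Among 202 groups of 4 libraries of the named genes, 11 (5.45%) held 1 library whose gap to the nearest of the others was large for the range of the group, and chance gives about 1 in 20. In NOR these were Actc1 in NOR 1 (1509 CPM, with 446 to 536 CPM in the other NOR libraries), Scnn1b in NOR 1 (0.649 CPM), Socs1 in NOR 2 (52.8 CPM, with 2.46 to 9.01 CPM in the others), Smox in NOR 3 (526 CPM), and Cebpd in NOR 4 (95.9 CPM). In AM they were Irf9 in AM 1 (24.1 CPM), Xirp1 in AM 1 (260 CPM), Acot1 in AM 3 (16.1 CPM, with 4.3 to 5.65 CPM in the others), Pcdhga4 in AM 3 (28.3 CPM), Col5a1 in AM 4 (121 CPM), and Fos in AM 4 (62.2 CPM, with 4.73 to 13.6 CPM in the others).

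Between the labelled strains, Hspa1a and Hspa1b differed in AM vs. NOR by -6.20 and -6.42 on the log2 scale (BALB/c minus C57BL/6, FDR = 0.0106 and 0.0201, edgeR interaction term). The heat shock genes were high in NOR 3 and NOR 4, both libraries of the BALB/c-labelled NOR mice. Whether the labels give the strain is in doubt, and label, tumor line, and library cannot be told apart there.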

How the results depend on the processing

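With DESeq2, 50 DEGs were higher and 20 lower, against 0 in edgeR, and the cause was not tested. Within BALB/c-labelled mice 3 were lower. Genes at an unadjusted p under 0.05, 746 higher and 608 lower, became 264 and 314 in BALB/c-labelled mice alone, 853 and 940 in C57BL/6-labelled mice alone, 535 and 351 in the fit of all 16 libraries, 362 and 262 without AM 1 and AM 3, and 275 and 182 with the 4-library pattern as a covariate. Replicate numbers did not pair the samples (correlations of deviations of -0.449, -0.0992, -0.296, and -0.143), and the replicate block gave 364 and 332. The interaction count of 2 was 127 in DESeq2. Leaving out 1 library at a time gave 0 to 13 DEGs higher and 0 to 1 lower (the highest without AM 4), 479 to 1112 genes higher and 366 to 966 lower at p under 0.05, and 428 to 995 above and 478 to 969 below without overlap, where fewer libraries raise the count by construction. At p under 0.05 the lower genes numbered 366 without NOR 1, 397 without NOR 2, 375 without AM 1, and 966 without AM 4, and the higher genes 479 without AM 1.

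Some near-zero genes changed sign. Leaving out 1 library at a time, Trim63 ranged from -0.11 to 0.30, Fkbp5 from -0.022 to 0.78, Acadm from -0.034 to 0.16, Cpt1b from -0.13 to 0.19, and Hadha from 0.015 to 0.26. Trim63 was at -0.40 in C57BL/6-labelled mice, -0.03 without NOR 3, -0.11 without AM 4, and -0.12 without NOR 3 and NOR 4. Il6ra was at -0.10, Pkm at 0.026, and Actc1 at 0.55 in BALB/c-labelled mice, Actc1 at 0.25 without AM 1 and AM 3, Fkbp5 at -0.022 without NOR 3, and Psma1 at 0.015 with the pattern covariate. In C57BL/6-labelled mice Hadha was at -0.17, Acadm at -0.18, and Cpt1b at -0.39. Cpt1b was at -0.0053 without NOR 3, -0.023 without NOR 4, -0.13 without both and without AM 3, -0.085 without AM 1 and AM 3, and -0.073 with the pattern covariate. Acadm was at -0.034 without AM 3 and -0.022 without NOR 3 and NOR 4. Of the other values of named genes, 2887 kept their direction and their side of the FDR limit and 43 newly passed the FDR limit. Of the list medians, 888 moved by less than 1 SD of the AM libraries and 96 by more. Genes under the count filter were not tested.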
